A study of Mus musculus with 16 samples.

Results

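Endothelial and angiogenesis genes were examined in brown adipose tissue (BAT) of mice lacking Gdf15 in thermogenic adipocytes. The set holds 36 genes of the 49066 in the data. They were taken from a written list of vascular genes, which was chosen with earlier results of these data known. Counts of members set beside shares of all genes are therefore descriptive. All 36 were found by their gene symbol. By role, 2 are VEGF ligands, 3 are VEGF receptors, 5 belong to the angiopoietin-TIE pathway and 2 to Notch signaling. A further 3 are transcription factors and 5 are G protein-coupled receptor components or nitric oxide synthase. The remaining 16 form a broad role named junction and surface. It also holds Egfl7 (secreted), Mmrn2 (extracellular matrix), Vwf (stored in granules) and Ptp4a3 (a tyrosine phosphatase). For 29 of the 36 members, the list held the gene as a marker of endothelial cells.

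In each sex, BAT was collected from 4 WT and 4 KO mice on the C57BL6/J background, giving 16 libraries. All were 18 weeks old and had received a high-fat diet (HFD) for 12 weeks. KO mice were homozygous for the floxed Gdf15 allele and carried a Cre transgene driven by the Ucp1 promoter, which the authors used to target thermogenic adipocytes. Cre activity in endothelial cells cannot be read from these data. WT mice were littermates with the same floxed alleles and without Cre, so no mouse carried Cre without floxed Gdf15. Whole tissue was sequenced, and every value below is a mixture over all cell types of the depot. A lower level in such tissue can reflect fewer cells of a type or less RNA per cell, and these cannot be told apart here.

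BAT is among the most densely vascularized tissues, and its capillaries supply oxygen and fatty acids for heat production. Adipocytes secrete VEGF-A and VEGF-B, which bind receptor tyrosine kinases on endothelial cells, and VEGFR2 signaling drives endothelial survival and sprouting. Angiopoietin-1 from perivascular cells binds TIE2 on the endothelium and favors vessel stability, whereas angiopoietin-2 can oppose it. Endothelial identity is maintained by ETS factors such as ERG and by SOX17 and SOX18, and VE-cadherin, claudin-5 and PECAM-1 hold endothelial cells together.

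Because ETS factors recognize sites around a GGAA core, the promoters of 3 members are printed here, with matches to CAGGAA or CCGGAA on either strand in capitals. Tie1 and Robo4 are endothelial genes that rose in KO mice, as described further on, and Vegfa is the main ligand, which did not pass the test. Each sequence holds the 250 bases before the start of the gene, from RefSeq on GRCm38.p6, written 5′ to 3′ along the gene. The region is chr4:118489850-118490099 on the minus strand for Tie1, chr9:37401722-37401971 on the plus strand for Robo4 and chr17:46032378-46032627 on the minus strand for Vegfa.
Tie1: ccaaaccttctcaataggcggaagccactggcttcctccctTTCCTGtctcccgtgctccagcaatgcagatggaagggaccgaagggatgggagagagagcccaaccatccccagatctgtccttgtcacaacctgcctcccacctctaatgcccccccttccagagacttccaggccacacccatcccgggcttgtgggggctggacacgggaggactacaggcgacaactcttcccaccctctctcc
Robo4: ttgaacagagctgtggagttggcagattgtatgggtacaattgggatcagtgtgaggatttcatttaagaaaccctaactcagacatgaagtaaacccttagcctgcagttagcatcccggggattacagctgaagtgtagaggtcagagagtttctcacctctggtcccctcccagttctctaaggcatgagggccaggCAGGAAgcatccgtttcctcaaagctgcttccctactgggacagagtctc
Vegfa: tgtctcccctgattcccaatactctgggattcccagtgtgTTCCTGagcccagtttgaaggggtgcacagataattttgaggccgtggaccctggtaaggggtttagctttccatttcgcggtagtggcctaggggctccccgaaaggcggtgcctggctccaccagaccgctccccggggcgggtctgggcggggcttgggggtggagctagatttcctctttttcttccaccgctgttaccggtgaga
Each of the 3 sequences has 1 match. RefSeq promoters were found for 19 of the 36 members, with 25 start sites. The letters CAGGAA occurred in 13 of the 25 member promoters and in 25.7% of all 32851 promoters, CCGGAA in 2 of 25 and in 12% of all, and either of them in 15 of 25 and in 35.1% of all. The SOX core ACAAT was found in 6 of the 25 and in 27.7% of all. These matches describe letters in a window, and no binding was measured.

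Expression is given in TPM, reads per transcript length as a share of the whole library, set to add up to 1000000. The number of reads is not kept, so the depth behind a value is unknown and precision rests on the spread between mice. Between 34.5 and 59.8% of the TPM was mitochondrial. In female WT replicate 4, 17.7% of the TPM fell on transcripts without a match in the annotation, against 0.333 to 0.480% in the other libraries. In that library, 1 unmatched transcript alone held 16.5% of the TPM. Results in females are therefore given with and without female WT replicate 4. The library names begin with a prefix of unstated meaning (5, 5, 9 and 9 for male WT, 10, 9, 9 and 9 for male KO, 10, 8b, 8b and 8b for female WT and 10, 5, 8b and 9 for female KO replicates 1 to 4), so genotype and prefix overlap in part. The targeted gene was low in every group. Gdf15 had 0.368, 0.690, 1.55 and 3.81 TPM in the male WT mice and 0.0915, 0.0801, 0.255 and 0.272 TPM in the male KO mice. In females, the WT mice had 0.0622, 0.311, 0.170 and 0.290 TPM, and the KO mice had 0, 0, 0.0794 and 0 TPM. Every male KO mouse was below every male WT mouse, whereas in females the highest KO value lay above the lowest WT value.

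All 36 members were above 0 TPM in all 16 libraries. Vegfa had the highest mean level (217 TPM), followed by Egfl7 (141 TPM), a protein that endothelial cells secrete, and Vegfb (111 TPM). A mean above 10 TPM was reached by 23 members. Among the adhesion proteins, Cdh5 (VE-cadherin) had 64.4 TPM and Pecam1 had 52.3 TPM on average. Among the receptors, Kdr (VEGFR2) had 35.5 TPM, Flt1 (VEGFR1) 22.8 TPM and Flt4 (VEGFR3) 2.24 TPM. Angpt2 had the lowest mean, 0.843 TPM, and was the only member under the minimum mean of 1 TPM that was set for testing.

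KO and WT mice were compared with limma on log2(TPM + 0.5) within each sex, with p-values adjusted over all genes tested (Benjamini-Hochberg). The constant shrinks the fold changes of weakly expressed genes. Since TPM add up to a fixed total, the median of all genes need not be 0. It was 0.16 in males and 0.10 in females, KO minus WT on the log2 scale, and rescaling by median-of-ratios factors brought it to 0.00 in both.

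In males, the vascular genes leaned toward higher levels in KO mice, and no member passed the adjusted threshold of 0.05. Of the 35 members tested, 31 were higher and 4 lower, and the median log2 fold change was 0.41. Of all 12176 genes tested in males, 0.00821% passed the adjusted threshold and 79.9% were higher in KO mice. At an unadjusted p under 0.05, 14 members were higher and 0 lower, against 17.7% of all genes higher and 1.07% lower. Under median-of-ratios scaling, these became 8 and 0 members against 8.3% and 7.3% of all genes, with a median of 0.25. The lowest adjusted p of a member was 0.165, for S1pr1, the endothelial receptor for sphingosine-1-phosphate (log2 fold change 0.57 ± 0.14, SE). S1pr1 had 16.98, 23.4, 22.3 and 27.2 TPM in the male WT mice and 36.1, 32.0, 31.8 and 33.0 TPM in the male KO mice. In 5 members, S1pr1, Eng, Robo4, Sox17 and Ramp2, the groups did not overlap and KO was higher, which held for 9.55% of all genes.

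In females, the median difference was larger than in males, and likewise no member passed the adjusted threshold. Of the 35 members, 33 were higher and 2 lower in KO mice, against 62.7% of all genes higher, with a median log2 fold change of 0.70. At an unadjusted p under 0.05, 26 members were higher and 1, Angpt1, was lower. Among all 12141 genes, 11.6% were higher and 5.45% lower by the same criterion, and 0.0% passed the adjusted threshold in either direction. The lowest adjusted p of a member was 0.231, which many members shared. With median-of-ratios scaling, 25 members were higher and 1 lower at an unadjusted p under 0.05, against 9.95% and 10.3% of all genes, and the median was 0.60. In 16 members, the lowest KO value exceeded the highest WT value, against 4.89% of all genes, and in 0 members the reverse held, against 3.19%. The 16 were Pecam1, Cdh5, Tek, Tie1, Emcn, Esam, Robo4, Erg, Sox17, Ramp2, Adgrl4, Mmrn2, Clec14a, Icam2, Dll4 and Ptp4a3. Cdh5 had 47.6, 35.9, 49.3 and 55.2 TPM in the female WT mice and 122, 69.5, 64.3 and 91.2 TPM in the KO mice. Its log2 fold change was 0.85 ± 0.23 (SE), with an adjusted p of 0.231.

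Female KO mice were not alike. Averaged over the 29 endothelial markers, log2(TPM + 0.5) was 4.83 and 4.59 in KO replicates 1 and 4 and 4.09 and 3.97 in replicates 2 and 3. The 2 latter mice lay closer to the WT mice. The average was 3.82, 3.30, 3.67 and 3.76 in the female WT mice, so all KO mice lay above all WT mice. In males, the same average was 3.44, 4.21, 3.76 and 3.85 in WT and 4.04, 4.23, 4.18 and 4.19 in KO mice, and male WT replicate 2 lay within the KO range. The WT mouse with the lowest average in each sex (male WT replicate 1 and female WT replicate 2) also had the highest mitochondrial share of TPM, 59.8% and 59.1%. The next lowest mouse of their sex was at 3.76 and 3.67. After median-of-ratios scaling, the same 2 mice were at 3.68 and 3.53 and the next lowest at 3.78 and 3.68, so the distance became smaller. Among the female KO mice, the mitochondrial share was 41.45% and 45.23% in replicates 1 and 4, and 49.48% and 52.82% in replicates 2 and 3. In female KO replicate 1, the most abundant transcript was of Gm29216, at 8.60% of the TPM, a gene named after its value was seen. The part of the mitochondrial share and of this transcript in these values was not tested. Without female KO replicates 1 and 4, a setting chosen after their values were seen, the median log2 fold change of the members in females was 0.35 (all genes, 0.07). At an unadjusted p under 0.05, 8 members and 247 of 12077 genes were then higher.

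Leaving out female WT replicate 4, the library with the large unmatched share, changed the female comparison little. With 3 WT and 4 KO mice, which share all but 1 library with the comparison above, the median was 0.73 (all genes, 0.07). Again, 26 members were higher and 1 lower at an unadjusted p under 0.05, against 8.74% and 5.7% of all 12089 genes. None passed the adjusted threshold (0.0248% of all genes did). The number of members with all KO values above all WT values went from 16 to 22, against 6.79% of all genes. Kdr, Flt1, Flt4, Eng, Egfl7 and Notch1 were the ones added. For 1 member, Angpt1, all KO values were below all WT values, against 6.46% of all genes. Eng, an endothelial co-receptor for TGF-β ligands, had 47.0 TPM in WT replicate 4 and 37.3, 20.6 and 30.9 TPM in the other 3. Its KO values were 109, 47.0, 45.3 and 89.3 TPM.

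**Figure D1:**
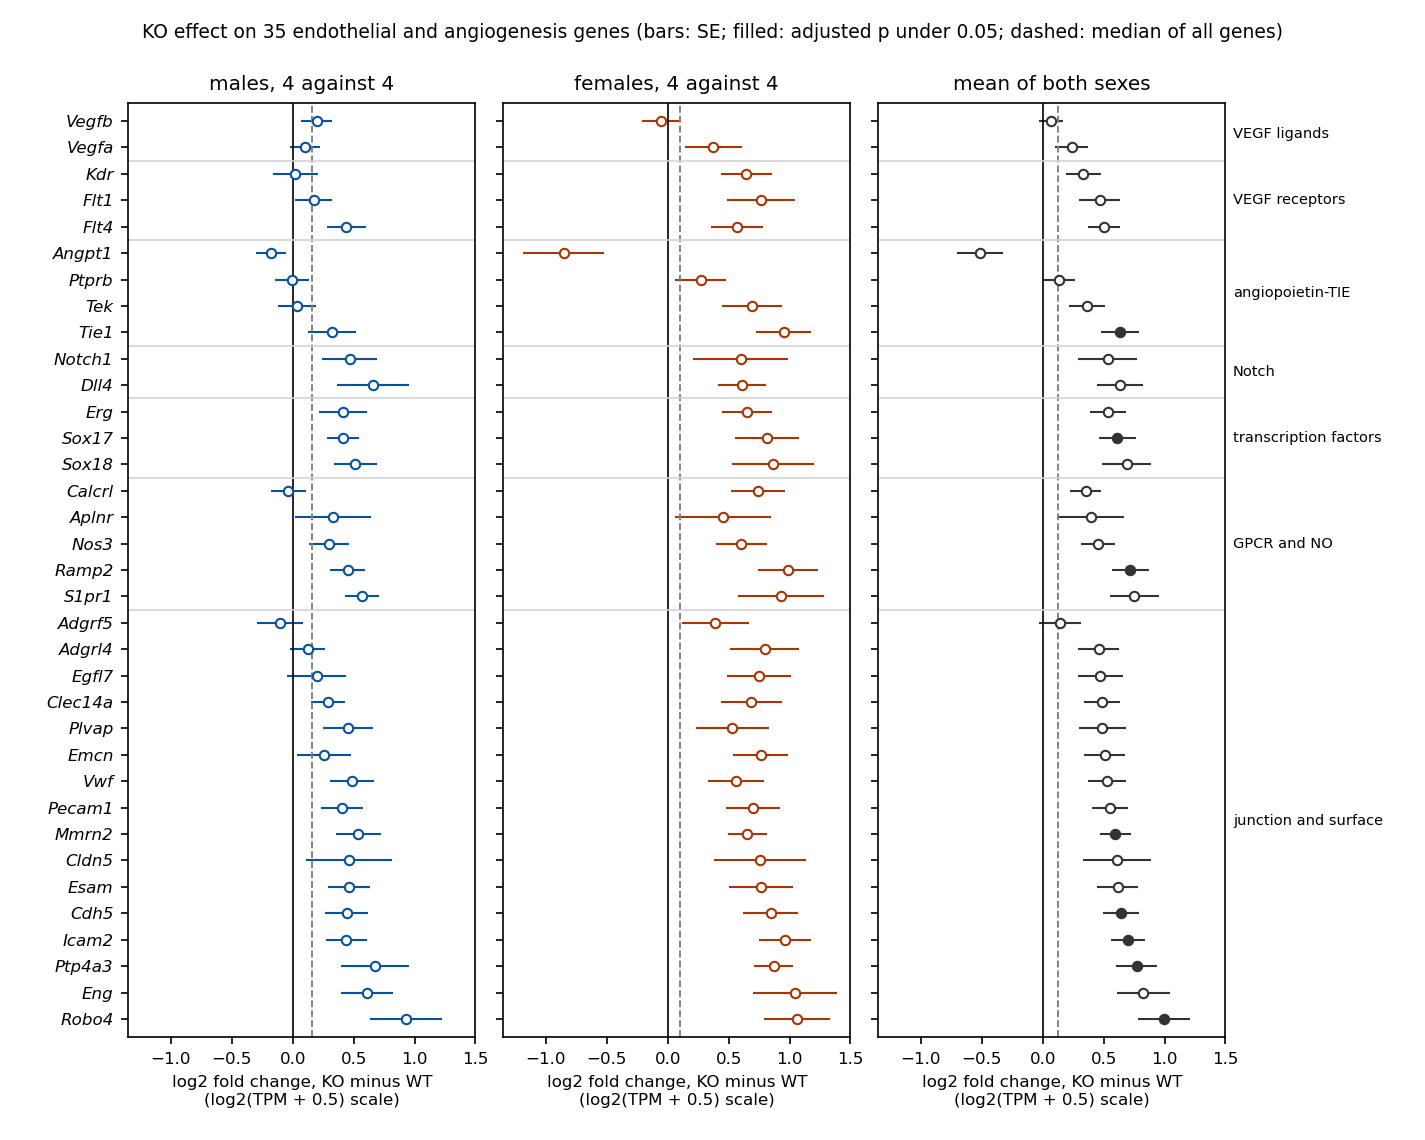
Each point is the log2 fold change (KO minus WT, on the log2(TPM + 0.5) scale) of 1 member with its SE, in males, in females and as the mean of both sexes, grouped by role. The dashed line marks the median of all genes tested. In the mean of both sexes, 34 of 35 members lie to the right of 0, Angpt1 lies at -0.52, and the 8 filled points had an adjusted p under 0.05.

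The mean of the KO effects in males and females, fitted over all 16 mice, was estimated next. It shares its mice with the comparisons above and is not separate evidence. In this fit, 8 members rose and none fell, against 2.58% and 0.352% of all 12210 genes (315 rose and 43 fell, 2.93% in all). They were Icam2, Ramp2, Mmrn2, Robo4, Ptp4a3, Cdh5, Tie1 and Sox17. Of the 35 members, 34 were higher in KO mice, against 75.5% of all genes, with a median log2 fold change of 0.52 (all genes, 0.13), and 29 were higher with an unadjusted p under 0.05, against 21.4% of all genes. With median-of-ratios scaling, 6 members rose, all of them among the 8, against 1.91% of all genes, and the median was 0.40.

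Of the 8, 5 were in the broad junction and surface role, which held 16 of the 35 members tested. The other 3 belonged to 1 other role each. Icam2, an adhesion molecule of endothelial junctions, had 10.3, 14.7, 10.5 and 12.6 TPM in the male WT mice, against 12.3, 16.5, 17.2 and 20.5 TPM with KO. Female WT mice had 13.2, 7.96, 8.38 and 9.09 TPM of Icam2, against 23.2, 14.5, 16.1 and 23.6 TPM with KO. The groups overlapped in males through KO replicate 1 and did not overlap in females. Its mean log2 fold change was 0.70 ± 0.14 (SE, limma adjusted p = 0.0272). Robo4, a roundabout-family receptor that is largely restricted to endothelium, had the largest fold change of all members, 0.996 ± 0.214 (SE, adjusted p = 0.0313), or 1.995-fold. Its TPM in males were 2.50, 8.17, 5.10 and 6.89 in WT and 10.01, 10.4, 12.5 and 9.02 in KO mice. In females they were 7.44, 4.02, 3.52 and 5.82 in WT and 17.2, 8.34, 9.46 and 10.7 in KO mice. No KO mouse was as low as any WT mouse of its sex, which held in both sexes for Robo4, Sox17 and Ramp2, or 3 members, and for 0.746% of all genes.

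Mmrn2, an extracellular matrix protein of vessels that binds CLEC14A, rose by 0.60 ± 0.12 (SE, adjusted p = 0.0301), from 10.1 ± 2.81 to 14.5 ± 1.49 TPM in males and from 9.15 ± 1.44 to 14.7 ± 2.43 TPM in females (mean ± SD, n = 4). Clec14a itself was 0.49 ± 0.15 higher, with an adjusted p of 0.0748. Cdh5 rose by 0.65 ± 0.15 (adjusted p = 0.0358), and its male groups overlapped through WT replicate 2, at 73.9 TPM. Ptp4a3, a tyrosine phosphatase of the PRL family, rose by 0.77 ± 0.17 (adjusted p = 0.0313). It had 14.4, 24.1, 13.03 and 12.4 TPM in male WT and 38.1, 19.3, 28.8 and 18.02 TPM in male KO mice, with wide spread in the latter. In females, it had 11.1, 11.4, 9.65 and 9.90 TPM in WT and 18.5, 16.99, 26.4 and 17.5 TPM in KO mice, which did not overlap.

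The other 11 genes of the junction and surface role were higher in KO mice without passing the adjusted threshold. Their mean log2 fold changes ran from 0.14 ± 0.17 for Adgrf5, an adhesion G protein-coupled receptor, to 0.83 ± 0.22 for Eng (adjusted p = 0.0515). Pecam1 was at 0.55 ± 0.15 (adjusted p = 0.054), Esam, a junctional adhesion molecule, at 0.61 ± 0.17 (adjusted p = 0.0546), and Vwf, the clotting protein stored in endothelial granules, at 0.52 ± 0.15 (adjusted p = 0.0697). Emcn, a sialomucin of capillaries and veins, was at 0.51 ± 0.17 (adjusted p = 0.0911), and Plvap, which forms the diaphragms of fenestrated capillaries, at 0.49 ± 0.19 (adjusted p = 0.142). Cldn5 varied most, with 13.7 to 53.3 TPM among the male WT mice and 24.1 to 79.1 TPM among the female KO mice, and its adjusted p was 0.198.

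**Figure D2:**
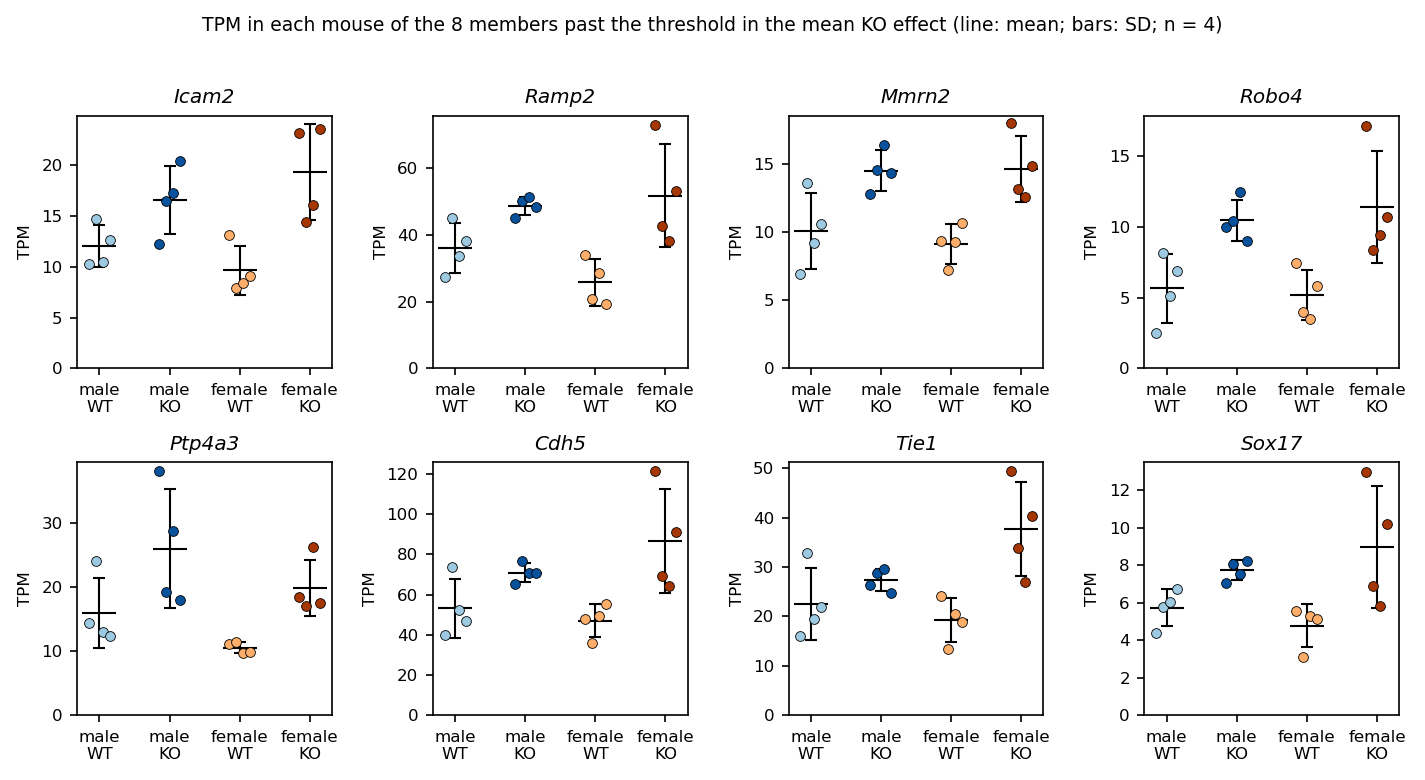
TPM of the 8 members that rose in the mean of both sexes, with 1 point per mouse, the group mean as a line and the SD as bars (n = 4 per group). Robo4, Ramp2 and Sox17 show no overlap between WT and KO in either sex, whereas for Cdh5 and Tie1 male WT replicate 2 lies above at least 3 of the 4 male KO mice.

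Among transcription factors, Sox17 rose by 0.61 ± 0.15 (SE, limma adjusted p = 0.0482). Sox17 had 4.37, 5.75, 6.04 and 6.76 TPM in male WT and 7.05, 8.07, 7.55 and 8.24 TPM in male KO mice. In females it had 5.56, 3.08, 5.30 and 5.14 TPM in WT and 13, 6.87, 5.83 and 10.2 TPM in KO mice, of which replicate 3 lay just above the highest WT mouse. Sox18, its close relative, was at 0.69 ± 0.20 (adjusted p = 0.0695), and Erg, an ETS factor of the endothelium, at 0.53 ± 0.15 (adjusted p = 0.0587).

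Among receptor components, Ramp2 rose by 0.72 ± 0.15 (SE, limma adjusted p = 0.0301). RAMP2 pairs with the product of Calcrl to form the adrenomedullin receptor of blood vessels. Ramp2 had 27.5, 45.0, 33.6 and 38.3 TPM in male WT and 45.2, 50.1, 51.3 and 48.5 TPM in male KO mice, where the lowest KO and highest WT values nearly touched. In females it had 34.1, 20.9, 28.7 and 19.3 TPM in WT and 73.1, 42.7, 38.2 and 53.3 TPM in KO mice. Its partner Calcrl had no such pattern in males, with 1.81 ± 0.28 TPM in WT and 1.75 ± 0.216 TPM in KO mice (mean ± SD, n = 4). In females, Calcrl had 1.28 ± 0.341 and 2.49 ± 0.665 TPM. The ligand gene Adm (adrenomedullin), which is no member but belongs to a list of further VEGF and hypoxia genes, rose by 0.76 ± 0.12 (adjusted p = 0.0112), from 1.79 ± 0.191 to 3.73 ± 0.869 TPM in males and from 1.18 ± 0.337 to 2.10 ± 0.247 TPM in females. S1pr1 was at 0.75 ± 0.20 (adjusted p = 0.0544), Nos3, the endothelial nitric oxide synthase, at 0.45 ± 0.14 (adjusted p = 0.0768), and Aplnr, the apelin receptor, at 0.39 ± 0.27 (adjusted p = 0.383).

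The 3 VEGF receptors did not pass the adjusted threshold. Kdr had 24.4, 46.6, 34.1 and 27.7 TPM in male WT and 32.4, 34.1, 29.0 and 35.7 TPM in male KO mice, or 0.02 ± 0.19 (SE) on the log2 scale. In females, Kdr had 27.0, 24.8, 31.2 and 33.6 TPM in WT and 60.8, 40.5, 32.4 and 53.8 TPM in KO mice (0.64 ± 0.21), where KO replicate 3 lay within the WT range. Flt1 was at 0.17 ± 0.15 in males and 0.76 ± 0.28 in females. Flt4, which also marks lymphatic vessels, was at 0.44 ± 0.16 and 0.57 ± 0.21, and its adjusted p in the mean of both sexes was 0.0532.

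The angiopoietin-TIE genes differed in direction. Tie1, an orphan receptor that modulates TIE2, rose by 0.64 ± 0.16 (SE, limma adjusted p = 0.045) in the mean of both sexes. Tie1 had 15.98, 32.8, 19.4 and 21.96 TPM in male WT and 26.3, 28.7, 29.5 and 24.8 TPM in male KO mice, and 24.1, 13.3, 20.5 and 18.8 TPM in female WT and 49.4, 33.9, 27.0 and 40.4 TPM in female KO mice. The female groups did not overlap, whereas male WT replicate 2 was the highest male. Tek, which encodes TIE2, was at 0.36 ± 0.15 (adjusted p = 0.162), and Ptprb, a phosphatase that acts on TIE2 and VE-cadherin, at 0.13 ± 0.13 (adjusted p = 0.537).

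Angpt1, the agonist of TIE2, was the only member that was lower in KO mice in the mean of both sexes, at -0.52 ± 0.19 (SE, limma adjusted p = 0.117). It had 3.44, 2.94, 2.90 and 2.59 TPM in male WT and 2.97, 2.19, 2.56 and 2.54 TPM in male KO mice, which overlapped. In females, it had 3.65, 4.02, 4.63 and 2.54 TPM in WT and 0.979, 3.32, 2.62 and 1.05 TPM in KO mice. The low values were those of KO replicates 1 and 4, the mice with the highest endothelial levels. Without those 2 mice, the mean log2 fold change of Angpt1 was -0.22. Angpt2 was too low to be tested. It had 0.438 to 0.795 TPM in male WT and 0.822 to 1.36 TPM in male KO mice, without overlap, and 0.433 to 1.39 TPM in female WT and 0.559 to 1.44 TPM in female KO mice, with overlap.

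Both Notch genes were higher in KO mice without passing the adjusted threshold. Dll4, a Notch ligand of tip cells and arteries, was at 0.63 ± 0.19 (SE, limma adjusted p = 0.0707) and Notch1, its receptor, at 0.53 ± 0.24 (adjusted p = 0.197) in the mean of both sexes. Notch1 had 14.9 TPM in female WT replicate 4 and 6.84, 3.46 and 5.39 TPM in the other female WT mice. Without that library, its log2 fold change in females was 0.97 ± 0.29 (adjusted p = 0.328), against 0.60 ± 0.39 with it.

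The calls of the mean effect were close to the threshold, with adjusted p between 0.0272 and 0.0482. The number of members that passed changed with single libraries. It was 0 without male WT replicate 3, male KO replicates 2 or 3, female WT replicate 2 or female KO replicates 1 or 4, each left out alone, and 1 without male KO replicate 4. It was 2 without male WT replicate 1, 3 without female WT replicate 3 and 5 without male KO replicate 1. It was 18 without male WT replicate 2 or female KO replicate 2, and 19 without female KO replicate 3. The number of all genes that passed moved along, from 358 to 1055, 587 and 862 in the last 3 omissions, and to between 31 and 71 where 0 members passed. The median log2 fold change of the members kept within 0.44 and 0.61 over the 16 omissions. Without both female KO replicates 1 and 4, 0 members and 9 of 12202 genes passed. The median of the members was 0.38 (all genes, 0.12), and 20 members and 1482 genes were higher at an unadjusted p under 0.05. With the name prefix added to the model, 0 members and 12 of 12210 genes passed. The median was then 0.42 (all genes, 0.07), and 19 members and 1285 genes were higher at an unadjusted p under 0.05. Within prefix 9 in males (2 WT and 3 KO mice), the median of the members was 0.44 (all genes, 0.14). In females it was 1.05 within prefix 10 (1 WT and 1 KO mouse, all genes at 0) and 0.36 within prefix 8b (3 WT mice and 1 KO mouse, all genes at 0.03), and 32 of 35 members were higher in KO mice in each of the 3. The share of all genes that were higher within a prefix was not computed. Without regard to prefix it was 79.9% in males and 62.7% in females. Where a group held 1 mouse, all members were read from that mouse alone.

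**Figure D3:**
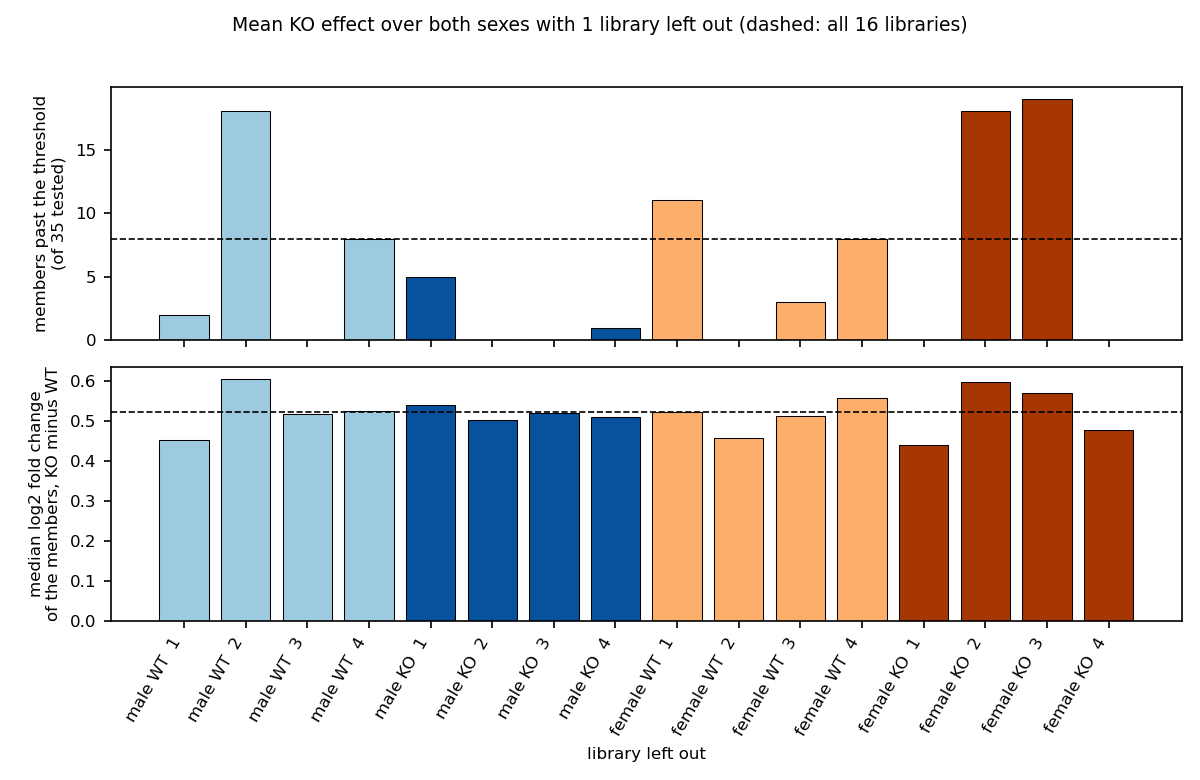
Number of members with an adjusted p under 0.05 (upper panel) and median log2 fold change of the 35 members (lower panel) in the mean of both sexes, with each library left out in turn. Bars are colored by group and dashed lines mark the values with all 16 libraries, 8 members and 0.52. The count runs from 0 to 19, whereas the median runs from 0.44 to 0.61.

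A difference of the KO effect between males and females was tested with an interaction term over all 16 mice. No member passed the adjusted threshold, and neither did any of the 12210 genes (0.0%). At an unadjusted p under 0.05, Calcrl, Tek and Kdr had a larger KO effect in females, against 2.51% of all genes, by 0.78 ± 0.26, 0.66 ± 0.30 and 0.62 ± 0.29 (SE) on the log2 scale. The lowest adjusted p of a member was 0.222, for Calcrl. The median of the members was 0.31 (all genes, -0.06), and it was -0.02 without female KO replicates 1 and 4. In males, the log2 fold changes of these 3 receptor genes were -0.04, 0.04 and 0.02. With median-of-ratios scaling, 8 members had a larger effect in females at an unadjusted p under 0.05, against 9.01% of all genes, and the median was 0.37.

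WT females and WT males were compared as a background for these genes. None of the 35 members passed the adjusted threshold (0.0664% of all 12042 genes did, 0.0249% as higher in females). Members were higher in females in 4 cases and lower in 31, against 37.7% of all genes higher. At an unadjusted p under 0.05, Ptp4a3 and Ramp2 were lower in females, at log2 fold changes of -0.54 and -0.49, against 2.17% of all genes lower and 1.25% higher. For 1 member, Ptp4a3, all females were below all males, against 1.2% of all genes. The median of the members was -0.15 (all genes, -0.05). Without female WT replicate 4, 0 members were lower and 1 was higher in females at an unadjusted p under 0.05. Of all 11972 genes, 172 were lower and 161 higher by that criterion. The median of the members was then -0.22 (all genes, -0.02).

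The VEGF ligands were measured at high levels in every mouse. Vegfa had 163, 211, 197 and 230 TPM in male WT and 192, 207, 231 and 222 TPM in male KO mice. In females, it had 269, 132, 192 and 204 TPM in WT and 265, 248, 192 and 311 TPM in KO mice, so the groups overlapped in both sexes. Its log2 fold change was 0.10 ± 0.12 (SE, limma adjusted p = 0.673) in males and 0.37 ± 0.24 (adjusted p = 0.414) in females. Vegfb, which binds VEGFR1, had 91.98, 127, 97.9 and 119 TPM in the male WT and 135, 128, 119 and 113 TPM in the male KO group. The female WT group had 122, 86.6, 103 and 121 TPM and the female KO group 110, 113, 103 and 88.3 TPM. Vegfb was at 0.20 ± 0.13 in males and -0.05 ± 0.16 in females (adjusted p = 0.406 and 0.864), and with median-of-ratios scaling its mean over both sexes turned to -0.07.

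The ligands were then compared with each of the 29 endothelial markers across the 16 mice, on the log2(TPM + 0.5) scale, which made 58 relations. For Vegfa, Pearson's r had a median of 0.70 and ran from 0.08 for Aplnr to 0.83 for Sox18. With Pecam1, r was 0.67 and Spearman's rho 0.61 (permutation test, p = 0.0042 and 0.0145, adjusted p = 0.0123 and 0.042), and r was 0.52 without the 2 mice farthest from the median of Vegfa. The relation passed the adjusted threshold for 27 markers by r and for 20 by rho. The relations of a ligand share its values and the same mice, so they are not separate results. The share of all genes that would pass against the same ligand was not computed. The relation of Vegfa with the markers rested on few mice and on the scale. Without those 2 mice (female WT replicate 2 and female KO replicate 4), the median r was 0.53 and 0 of 29 relations passed, and with median-of-ratios scaling it was 0.54 and 0 passed. After subtraction of the group means the median r was 0.63 and 22 passed, and within the 6 mice of prefix 9 it was 0.72.

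For Vegfb, the relations did not pass. Its median r was 0.29, 0 of the 29 relations passed by r or by rho, and the sign of the median turned with median-of-ratios scaling, to -0.22. With Pecam1, r was 0.31 and rho 0.29 (permutation test, p = 0.241 and 0.272, adjusted p = 0.355 and 0.404), and r was 0.42 without the 2 mice farthest from the median of Vegfb. After subtraction of the group means, the median r of Vegfb was 0.36 and 7 relations passed. Within the 6 mice of prefix 9, its median r was -0.29. Without female KO replicate 4 the median r was 0.53 and 13 relations passed, and without female KO replicates 1 and 4 it was 0.70 and 22 passed, so single mice decided this count as well.

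Angpt1 was compared with the same markers after its values had been seen. Its r was negative for every marker except Aplnr (0.10), with a median of -0.78, and 27 relations passed the adjusted threshold by r and 24 by rho. As for Vegfa, these relations are not separate results, and the share of all genes that would pass was not computed. With Pecam1, r was -0.83 and rho -0.71 (permutation test, p = 5e-05 and 0.00279, adjusted p = 0.000362 and 0.00551), and r was -0.66 without the 2 mice farthest from the median of Angpt1. Without those mice, female KO replicates 1 and 4, the median r was -0.63 and 15 relations passed. With median-of-ratios scaling the median r was -0.81 and 27 passed.

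**Figure D4:**
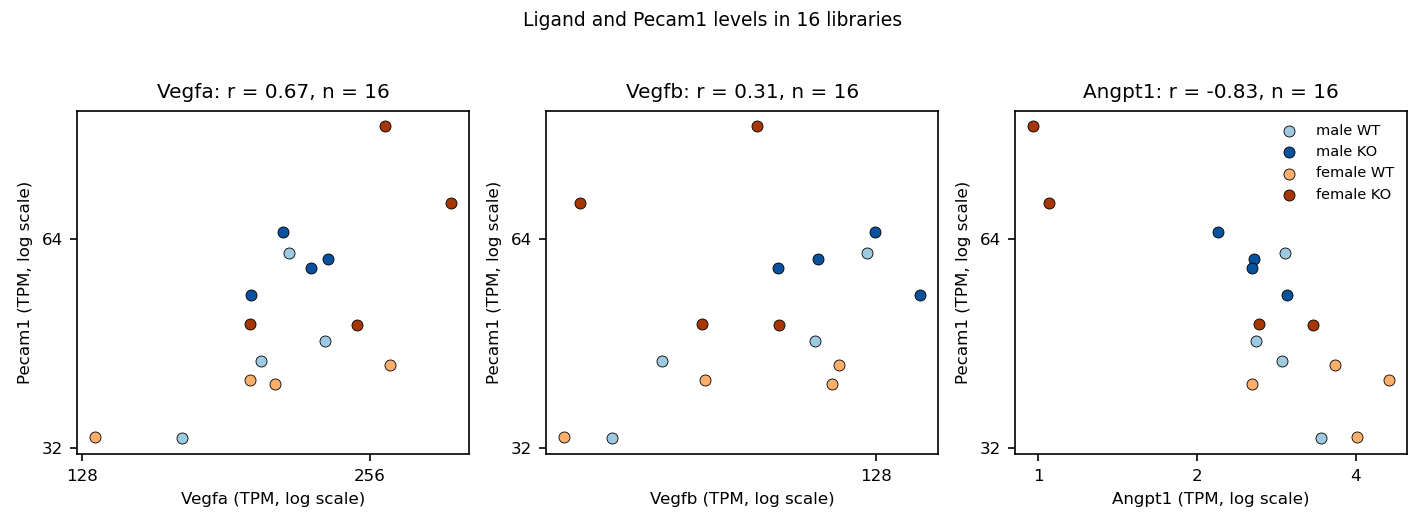
TPM of Pecam1 against TPM of Vegfa, Vegfb and Angpt1 in the 16 mice, on log axes, with 1 point per mouse colored by group. Pearson's r on the log2(TPM + 0.5) scale was 0.67, 0.31 and -0.83, and in the right panel female KO replicates 1 and 4 lie apart at about 1 TPM of Angpt1.

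Transcript values allowed the products of Vegfa and Flt1 to be separated, as far as the authors' estimates divide the reads that transcripts of 1 gene share. Of the TPM of Vegfa, 27.4% fell on a coding transcript for 368 residues and 15.1% on one for 146 residues, and transcripts annotated as retained introns took 53.4 ± 1.22% in female WT and 57.8 ± 1.99% in female KO mice (mean ± SD, n = 4). These female ranges, 51.8 to 54.5% and 56.1 to 60.1%, did not overlap (two-sided and exact permutation test, p = 0.0286, below which 4 mice against 4 cannot go). In males, the shares were 55.0 ± 1.13% and 53.8 ± 0.854% (exact permutation test, p = 0.143). Over the 8 tests of transcript shares, the adjusted p of the female comparison was 0.229, and none passed the adjusted threshold. The 146-residue transcript made 29.1 ± 3.66% of the coding TPM of Vegfa in female WT and 36.5 ± 4.94% in female KO mice (exact permutation test, p = 0.0857). In males, the order was the other way, with 36.6 ± 4.29% in WT and 33.6 ± 5.39% in KO mice (exact permutation test, p = 0.4). For Flt1, whose shorter coding transcript of 688 residues lacks the kinase part of the 1333-residue receptor, the share of the shorter form was 25.5 ± 2.25% in female WT and 21.3 ± 1.98% in female KO mice (exact permutation test, p = 0.0571), and 25.3 ± 3.11% and 22.8 ± 1.96% in males (p = 0.257 by the exact permutation test).

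Markers of other vascular and stromal cells were examined from lists written with the members, also with earlier results of these data known. For each list count in the mean of both sexes, the background is the 75.5% of all genes that were higher and the 2.58% that rose. Of 37 further endothelial genes tested, 36 were higher in KO mice in the mean of both sexes and 9 rose, among them Cd34, Aqp1 and Vwa1. Cd34, a surface sialomucin of endothelial and progenitor cells, was at 0.76 ± 0.12 (SE, limma adjusted p = 0.0114), and Aqp1, a water channel of capillaries, at 0.73 ± 0.15 (adjusted p = 0.0258). The median of this list was 0.32 in males and 0.70 in females. Of 12 arterial genes tested, 2 rose, Gja5 and Hey1 (0.60 ± 0.11 and 0.82 ± 0.16, adjusted p = 0.0212 and 0.0252), and 11 were higher. Of 5 venous genes tested, 2 of which are members, 0 rose and 5 were higher. Lymphatic markers were scarce, since Prox1, Lyve1, Pdpn, Mmrn1 and Reln had a mean below 1 TPM, and of the 3 tested Thy1, a surface protein that other stromal cells carry too, rose (0.72 ± 0.16, adjusted p = 0.0313).

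Mural cells (pericytes and smooth muscle) wrap the endothelium, and their markers were higher alongside it. All 16 were higher in the mean of both sexes, also with median-of-ratios scaling, and 3 rose, namely Pdgfrb (0.50 ± 0.11, SE, limma adjusted p = 0.0357), Rgs5 (0.40 ± 0.09, adjusted p = 0.036) and Ndufa4l2 (0.56 ± 0.13, adjusted p = 0.0365). Their summed level was 218 to 328 TPM in WT and 301 to 387 TPM in KO males. In females it was 223 to 255 TPM and 280 to 426 TPM, without overlap. The summed level of the 29 endothelial markers was 466 to 877, 740 to 858, 419 to 636 and 696 to 1402 TPM in the same order, likewise without overlap in females. Of the 19 further VEGF and hypoxia genes tested, 12 were higher and 1, Adm, rose in the mean of both sexes, and rescaling by median-of-ratios factors left 7 higher and 12 lower. In females 12 of these 19 were lower, with a median of -0.08, and Fgf1 and Hif1a had the lowest p among the lower ones (-0.89 ± 0.26 and -0.44 ± 0.16, adjusted p = 0.231 and 0.245).

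Markers of other cell types differed with genotype in part, and their part in the vascular result was not tested. All 15 macrophage markers were higher in male KO mice, as were 79.9% of all genes, with a median of 0.90, and their summed level was 63.0 to 128 TPM in WT and 161 to 248 TPM in KO mice. In females, the median was 0.24 and the summed levels overlapped (73.6 to 165 and 103 to 151 TPM). In the mean of both sexes, 3 of the 15 rose, Cd68 (0.77 ± 0.16, limma adjusted p = 0.0301), C1qa and C1qb. Of 13 fibroblast markers tested, 4 rose in that mean, Mfap5 with the lowest p (0.99 ± 0.16, SE, limma adjusted p = 0.0133). Mfap5 was also the 1 gene of all that passed the adjusted threshold in males, where 0 passed with the replicate number as a block. The fibroblast list had medians of 0.47 in males and 0.21 in females and summed levels of 290 to 579 TPM in WT and 522 to 635 TPM in KO males, and of 450 to 558 TPM and 440 to 746 TPM in females. Brown adipocyte markers had medians of 0.01 in males and 0.17 in females, with 0 of 16 past the threshold in the mean of both sexes (13 higher, and 4 higher with median-of-ratios scaling), and summed levels between 13070 and 24308 TPM. Skeletal muscle markers had medians of 0.50 in males and 1.19 in females. All 15 were higher in KO mice in each sex, against 79.9% and 62.7% of all genes. They also had the widest spread between mice of 1 group. Sums ran from 31.4 to 6286 TPM in male KO mice and from 20.1 to 5360 TPM in female KO mice, and 0 of 15 passed. The erythroid markers had medians of 0.78 in males and -0.22 in females, and 0 of 5 passed. Lymphocyte genes other than Ighm (11 genes) and epithelial genes other than Krt10 (9 genes) had means below 1 TPM. Of the lymphocyte, epithelial and Schwann and neuronal lists, 1, 1 and 5 genes were tested and 0 passed. No marker of these lists was at 0 in every mouse except Npy, a neuronal gene.

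**Figure D5:**
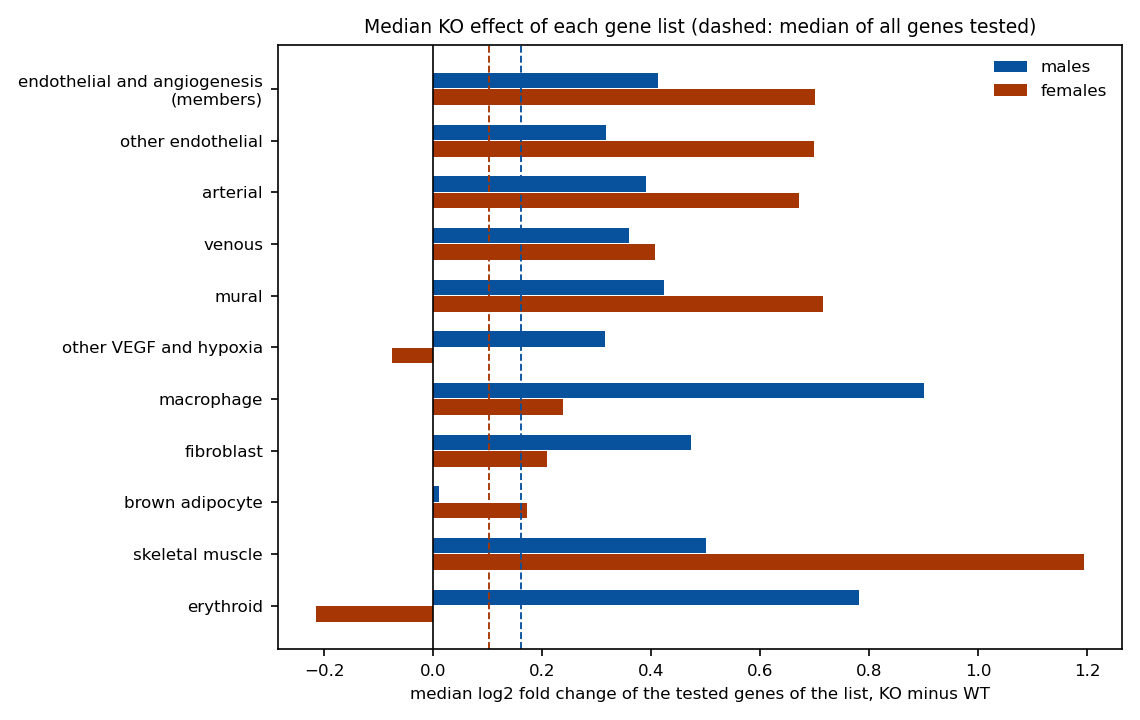
Median log2 fold change, KO minus WT, of the tested genes of each list in males and in females, with dashed lines at the median of all genes tested. The members and the further endothelial, arterial and mural lists have medians between 0.67 and 0.71 in females and between 0.32 and 0.42 in males, whereas the macrophage list has 0.90 in males and 0.24 in females. The skeletal muscle list has 0.50 in males and 1.19 in females, the largest bar in females, with wide spread between mice.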

How the data were processed

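BAT RNA of 16 mice was sequenced from poly(A)-selected, stranded libraries with single-end reads. The deposited values are TPM per transcript, which the authors made with kallisto 0.46.2. The submitters' processing notes name GRCm39. The authors' own comparison used estimated counts, which were not analysed here, so a count test was not possible. Of 137438 transcripts, 135051 were matched by identifier to GENCODE M21 (a GRCm38 release, used for names only), and the TPM of matched transcripts was summed per gene symbol. The 2387 unmatched transcripts were left out of genes. Samples were grouped by the labelled sex and genotype, and p-values measure the spread between these mice. Genes with a mean of at least 1 TPM over the libraries compared were tested on log2(TPM + 0.5) with limma 3.58.1 (R 4.3.3, eBayes with trend) and Benjamini-Hochberg adjustment over all genes tested, at a threshold of 0.05. Within-sex comparisons used the mice of that sex. The mean effect and the interaction used all 16. Correlations used 100000 permutations, with adjustment over 58 relations (over 29 for Angpt1), and transcript shares an exact permutation test (Python 3.11.15, scipy 1.17.1). The fits were tested on simulated data. Alternatives were other pseudocounts (0.1 and 1), no minimum or one of 5 TPM, median-of-ratios scaling, removal of mitochondrial or unmatched transcripts, no trend, all libraries in 1 fit, a replicate block, the library prefix as a covariate, and each library left out. Removal of unmatched transcripts, removal of female KO replicates 1 and 4 together, the combined settings and the relations of Angpt1 were chosen after seeing the data. All members could be named. From each other list, at most the 3 genes with the smallest p in a comparison were named, besides those said to be below the minimum or at 0. Members and lists were chosen with earlier results of these data known.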

Additional observations from a re-analysis of the deposited data

Results flagged for a closer look

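In 5 of 144 sets of 4 mice (36 members in 4 groups), the highest or lowest mouse lay far from the other 3 relative to the whole range. Chance alone gives about 1 in 20. Female WT replicate 4, the library with the large unmatched share, had 18.8 TPM of Emcn, and the other female WT mice had 16.1 to 16.5 TPM. Female WT replicate 2, which had the highest mitochondrial share in females, had 3.08 TPM of Sox17 (others, 5.14 to 5.56 TPM) and 11 TPM of Adgrl4 (others, 14 to 14.3 TPM). Male KO replicate 1 had 41.3 TPM of Adgrf5 (others, 49.8 to 50.3 TPM). Female KO replicate 4 had 1.44 TPM of Angpt2 (others, 0.559 to 0.609 TPM).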

How the results depend on the processing

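The direction of the median of the members held under every alternative in males, in females with and without WT replicate 4 and in the mean of both sexes. The number of members that passed was not stable. In the mean of both sexes it was 8 (358 of all genes), against 0 without a TPM minimum (54 genes), 14 with mitochondrial transcripts removed (452 genes), 0 with the replicate block (60 genes), 0 with the library prefix as a covariate (12 genes), 2 with unmatched transcripts removed (80 genes), 0 without female KO replicates 1 and 4 (9 genes), and 0 to 19 with 1 library left out (31 to 1055 genes). In females, it was 0, against 6 with all 16 libraries in 1 fit and median-of-ratios scaling (568 of 12220 genes). Without female KO replicates 1 and 4, the median log2 fold change was 0.35 in females, 0.44 in females without WT replicate 4 and -0.018 for the interaction, whose sign turned (0.31 with all mice). In the interaction, 19 members changed sign under at least 1 alternative. For Vegfa, 27 of 29 relations passed, against 0 with median-of-ratios scaling, 0 with mitochondrial transcripts removed and 16 to 27 with 1 library left out. For Vegfb, 0 passed, against 7 after subtraction of group means, 22 without female KO replicates 1 and 4 and 0 to 13 with 1 library left out. The retained-intron share of Vegfa in females differed by 4.43 percentage points, and by 3.65 to 5.00 with 1 mouse left out, where p was 0.0571, the smallest that 3 against 4 mice allow. The cause of these changes was not tested. Single members in the mean of both sexes were refitted 975 times, and most of these refits concerned members that did not pass. In 805 the member stayed on the same side of the threshold. The 8 members that passed lost the call in 116 refits, and the others gained it in 48. In 6 refits a member that did not pass (Vegfb, Adgrf5 or Ptprb) changed sign. The labels did not say whether mice with the same replicate number were paired. Deviations of same-numbered WT and KO mice from their group means correlated at -0.0853 to 0.351 in males and -0.109 to 0.145 in females. For male replicates 1 and 4 and female replicate 1, this was above the correlations of that WT mouse with other-numbered KO mice. For the other replicates it was not. These values cannot settle whether the numbers mark pairs. The block left 0 members past the threshold in every other comparison. Over all genes, it moved the number of calls from 1 to 0 in males, from 0 to 1 in females and from 8 to 7 between WT females and males. The prefix covariate could not be fitted for the sex difference in WT mice. The depth behind TPM is unknown, and 4 mice per group limited the precision.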
